A study of Mus musculus with 8 samples.

Results

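The genes described here were those of the ADAM and ADAMTS families, chosen by symbol: every row of the expression table whose name was Adam, Adamts or Adamtsl followed by a number (and, for Adam, at most 1 letter). They numbered 25 of the 12589 rows: 10 ADAM genes, 12 ADAMTS genes and 3 ADAMTS-like genes. ADAM proteins are membrane-anchored relatives of snake venom metalloproteases, and those with an active protease domain cut ("shed") the outer parts of other membrane proteins, releasing growth factors, cytokines and receptor fragments. ADAMTS proteins are secreted, carry thrombospondin repeats, and cut components of the extracellular matrix such as proteoglycans and procollagens. ADAMTS-like proteins have the thrombospondin repeats without the protease domain. Stromal cells of lymphoid organs lay down the fibre network of these tissues and display membrane-bound chemokines, cytokines and adhesion molecules, which are known substrates of such enzymes.

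RNA-seq was made from cultures of mSSC-YFP, a spleen stromal line of mouse that carries a yellow fluorescent protein. The labels gave 4 cultures with BMS493, an inverse agonist of the retinoic acid receptors, and 4 with its vehicle DMSO, each for 48 h and all in the same serum-containing medium. All 8 samples came from 1 line in culture, without the leukocytes and vessels of a spleen. The table analysed here held no values of single cultures, so BMS493 and DMSO were not compared. Each level below is the authors' mean log2 normalized expression over all samples, in which both treatments are mixed. The depth of each library and the spread between cultures are unknown, and whether neighbours in an order of levels differ beyond that spread was not tested.

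Long transcripts yield more reads than short ones at the same abundance, so genes were compared by a per-length level, which is the mean log2 expression less log2 of the longest annotated transcript in kb (GENCODE M21, build GRCm38). Over the 11783 rows whose symbol matched the annotation, the per-length level had a median of 3.30, a lower quartile of 1.85 and an upper quartile of 4.59. The label of the cells was checked against markers. Of 12 stromal genes 11 had a row, from Col1a1, a chain of type I collagen, at a per-length level of 10.7 to Pdgfra, a fibroblast receptor, at 2.47. The lymphocyte and myeloid genes Ptprc, Cd79a, Cd3e, Itgam and Adgre1 had no row. Among endothelial genes, Kdr had a per-length level of 0.27 and Pecam1 of -1.31. Among epithelial genes Krt8 had 0.58, whereas the cadherin gene Cdh1 stood at 5.88, above 90.6% of genes.

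The protease site itself was read first, since it separates enzymes from non-enzymes in this family. The extended zinc-binding motif of these metalloproteases is a stretch of 12 residues in which 3 histidines hold the zinc ion and a glutamate takes part in catalysis. Searched in the longest coding sequence of 21840 protein-coding genes, it was found in 40, or 0.183%. Of these 40 genes 39 belonged to the 57 annotated ADAM, ADAMTS and ADAMTS-like genes, and the other was the gene model Gm5346. Of the coding genes with a row 19 held the motif, and all 19 were members. The 6 members without it were Adam5, Adam11 and Adam23, and the ADAMTS-like genes Adamtsl3, Adamtsl4 and Adamtsl5. Absence of a match says only that these letters were not in the longest coding sequence. The class of Adam11 and Adam23 was defined as ADAMs without a zinc site, and ADAMTS-like proteins are defined as lacking the protease domain. For both groups the search therefore only checks the grouping.

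The 36 coding bases of the motif are shown for 10 members, to let the sheddases Adam9, Adam10 and Adam17 be set beside some of the ADAMTS genes. Adam15, a sheddase with a higher per-length level than Adam17, is not among them. They are written 5′ to 3′ along the spliced GENCODE M21 transcript, with the codons of the 3 histidines and the glutamate in capitals.
Adam9: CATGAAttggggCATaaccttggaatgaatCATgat
Adam10: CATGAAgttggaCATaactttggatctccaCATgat
Adam17: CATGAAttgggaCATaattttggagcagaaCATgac
Adamts1: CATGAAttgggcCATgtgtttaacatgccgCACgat
Adamts9: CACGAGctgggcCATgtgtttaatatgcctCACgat
Adamts4: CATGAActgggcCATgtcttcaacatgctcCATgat
Adamts2: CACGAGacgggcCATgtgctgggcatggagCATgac
Adamts3: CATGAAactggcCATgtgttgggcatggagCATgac
Adamts14: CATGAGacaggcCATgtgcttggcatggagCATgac
Adamts10: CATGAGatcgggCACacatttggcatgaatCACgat

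All 19 motifs differed from each other in their bases, but they coded for 15 distinct stretches of residues. Adamts2, Adamts3 and Adamts14, the procollagen enzymes, coded for 1 and the same stretch. So did Adamts1 and Adamts9, both proteoglycanases, with 31 of 36 bases alike. Adamts7 and Adamts12, which cut cartilage oligomeric matrix protein, also shared theirs. Pairs of ADAMTS genes had 20 to 33 bases in common (median 24, 66 pairs), and pairs of ADAM genes 19 to 30 (median 25, 21 pairs). Pairs of 1 ADAM and 1 ADAMTS gene had 17 to 32 (median 23, 84 pairs), so the base count within this stretch did not part both families. These pairs share genes and the fixed positions of the motif, and the counts are a description.

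The gene structure did part them. In 6 of the 7 ADAM members with the motif, the 36 bases lay within 1 exon: exon 11 in Adam9, Adam15, Adam19, Adam12 and Adam33, and exon 12 in Adam17. Adam10 was the exception, with 30 bases at the end of exon 9 and the rest at the start of exon 10. In all 12 ADAMTS members the motif ran across an exon junction, and that junction fell at only 2 places. It came after 10 bases in Adamts1, Adamts4, Adamts5 and Adamts8, and after 17 bases in the other 8. The 4 genes with the junction after 10 bases were 4 of the 5 proteoglycanases in the table, and Adamts9, the remaining one, had it after 17. Adamts9 therefore shared its residues with Adamts1 and its junction with all ADAMTS members outside its class, the procollagen enzymes among them. These positions hold for the longest coding transcript of each gene.

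Of the 57 annotated genes of the family, 25 (43.9%) had a row, against 49.9% of all annotated protein-coding genes. By class, rows were present for 7 of 9 membrane sheddases, 2 of 3 non-catalytic ADAMs of nerve and 1 of 21 ADAMs known chiefly from the reproductive tract. Among the secreted enzymes they were present for 5 of 7 proteoglycanases, 3 of 3 procollagen N-proteinases, 2 of 2 enzymes that cut cartilage oligomeric matrix protein (COMP) and 2 of 2 fibrillin-associated enzymes. Rows were also present for 3 of 5 ADAMTS-like proteins. Adamts13, which cuts von Willebrand factor, and Adamts16, Adamts17, Adamts18 and Adamts19 had none. Other genes of the named classes without a row were Adam8, Adam28, Adam22, Adamts15, Adamts20, Adamtsl1 and Adamtsl2.

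**Figure D1:**
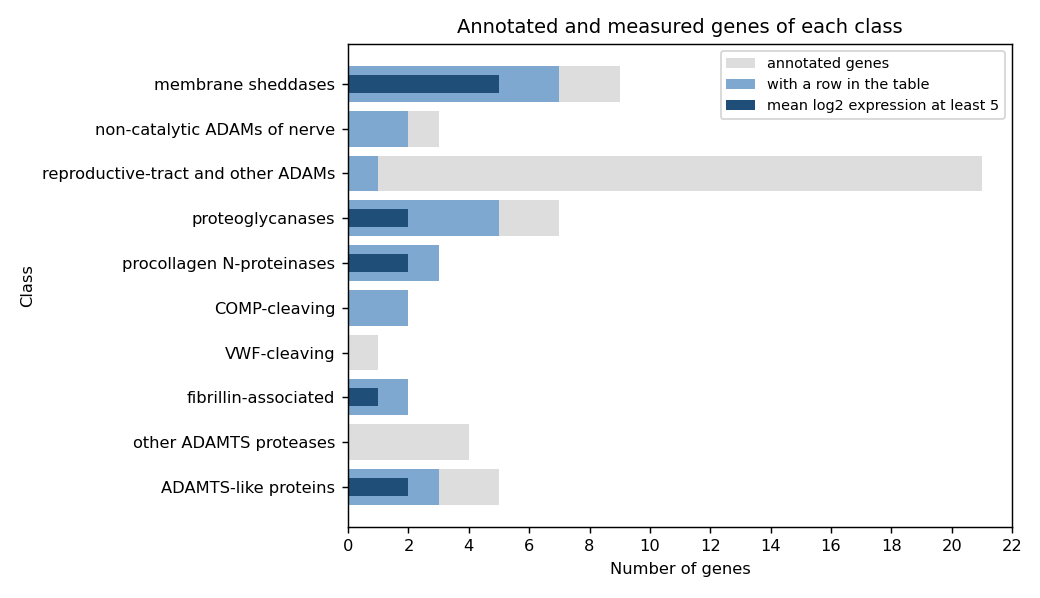
Number of genes (x axis) in each of the 10 classes (y axis). Grey bars are annotated genes, light blue bars those with a row in the table and dark blue bars those whose mean log2 expression reached 5. Sheddases had a row for 7 of 9 genes and a level of at least 5 for 5 of them, whereas the reproductive-tract class had 1 row of 21.

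On the per-length scale, 9 of the 25 members lay above the median of all matched genes and 16 below it. Above the upper quartile stood 3 members (Adam9, Adam10 and Adamts1), and below the lower quartile 11. Without length scaling 6 stood above the upper quartile of the whole table, 6.25, and 6 below the lower quartile of matched genes, 3.42. The surplus of low over high members was thus not seen without length scaling. Of the 25 members 4 had a mean log2 expression under 1, a range that held 6.8% of the whole table. The median per-length level was 2.74 for the 10 ADAM genes, 1.82 for the 12 ADAMTS genes and 3.03 for the 3 ADAMTS-like genes. Summed on the linear per-length scale, 2 raised to the per-length level, Adam9 alone made up 24.8% of the 25 genes. Adam9 and Adam10 together made up 41.1%, and the 10 most abundant members 86.7%. Shares of this sum, here and below, were computed with the longest transcript only.

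**Figure D2:**
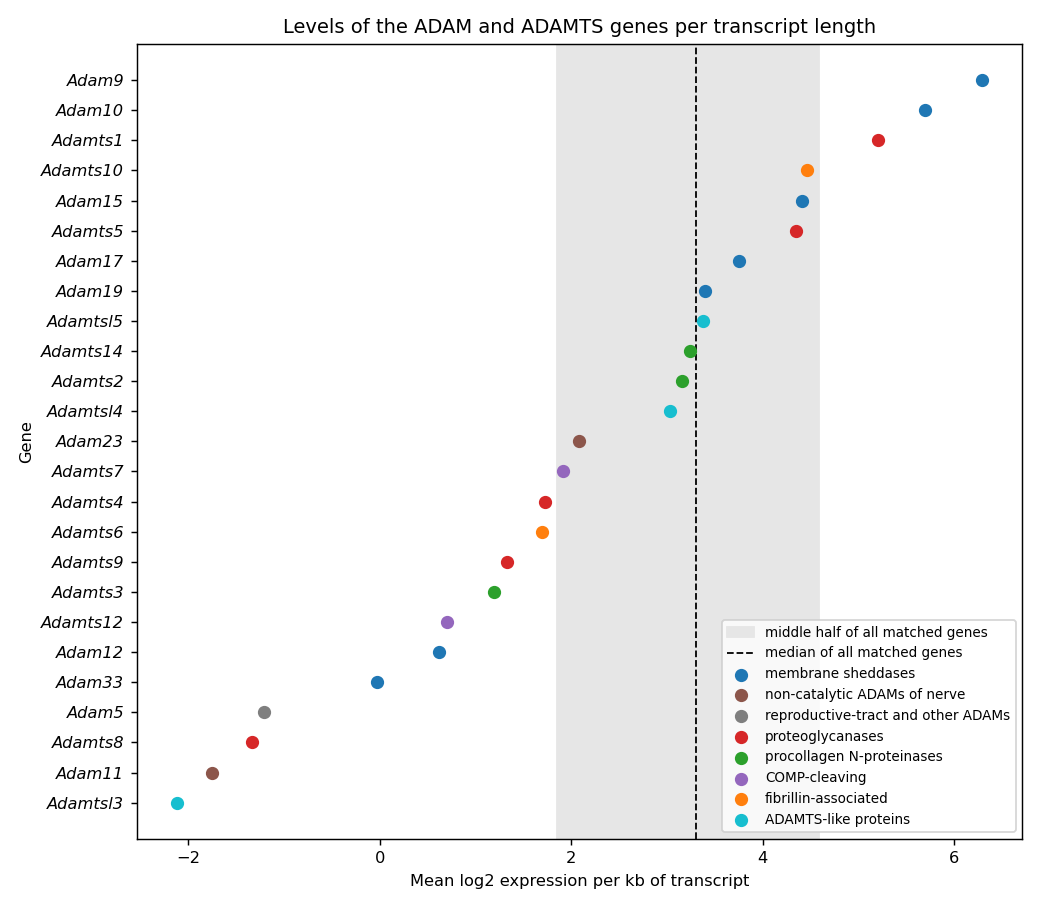
Mean log2 expression per kb of transcript (x axis) for each member (y axis, ordered by level), coloured by class. The dashed line is the median of all matched genes, 3.30, and the grey band runs from the lower to the upper quartile, 1.85 to 4.59. Only Adam9, Adam10 and Adamts1 lie to the right of the band, and the sheddases span the range from 6.29 to -0.03.

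The membrane sheddases held 56.2% of the members' summed linear per-length level, of which Adam9 and Adam10 made up 41.1%. The median per-length level of the sheddases was 3.75, and 5 of the 7 stood above the median of all genes. The class median lay 0.45 above that of all genes, but -0.17 from it with the median length of coding transcripts, where Adam17 and Adam19 fell below it. Adam9, a widely expressed sheddase (chr8:24949611-25016927, minus strand), had the highest level of the family, with a mean log2 expression of 8.31 and a per-length level of 6.29. This was 7.93-fold the per-length median of all genes and above 93.3% of them. Its motif lay in exon 11 at chr8:24990323-24990358, minus strand.

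Adam10, the enzyme that starts Notch receptor cleavage and sheds cadherins (chr9:70678997-70780229, plus strand), came next at a per-length level of 5.69. Adam9 exceeded it 1.51-fold on the linear per-length scale. With the median length of coding transcripts in place of the longest one the order turned, Adam10 at 6.51 and Adam9 at 6.34. The motif of Adam10 spanned chr9:70754296-70761588, plus strand, with the intron between exons 9 and 10 included.

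Adam15, an ADAM with an integrin-binding sequence in its disintegrin domain, had a per-length level of 4.41. Adam17, the enzyme that releases tumour necrosis factor and many ligands of the epidermal growth factor receptor (chr12:21323509-21373632, minus strand), had 3.75, above 59.1% of genes. Its motif was at chr12:21336729-21336764, minus strand. Adam10 and Adam17, which share many substrates, differed by 1.94 on the per-length log2 scale with the longest transcript and by 2.75 with the median length of coding transcripts.

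Adam19, a sheddase of neuregulins, lay close to the median of all genes at a per-length level of 3.40. Adam12, known from muscle and mesenchymal cells, had 0.62, and Adam33, known from airway smooth muscle and fibroblasts, had -0.03. The value of Adam12 depended on the length used: with the median length of coding transcripts it was 2.52, above the lower quartile of 2.37 on that scale. Adam33 lay below the lower quartile with each of the lengths and without scaling.

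Of the ADAMs without the protease motif, none reached the per-length median of all genes. Adam23, an adhesion receptor of nerve cells, had a per-length level of 2.08, in a mean log2 expression of 4.76. Adam11, of the same group, had -1.75, and only 1.07% of genes stood lower, or 4.16% of the whole table without length scaling. Adam5, a sperm protein, was the single row of its class at -1.21. It lies on chromosome 8 in a run of 5 ADAM genes on the minus strand, Adam18, Adam3, Adam5, Adam32 and Adam9, in which adjacent genes are 0.8 to 11.8 kb apart. Within that run the most abundant member of the family, Adam9, sits 0.8 kb from Adam32, which had no row.

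The secreted ADAMTS enzymes are given by class, and whether the classes differ was not tested. The 5 proteoglycanases, which cut versican and aggrecan, held 20.0% of the members' summed linear per-length level, yet their median per-length level was 1.73. Adamts1 (chr16:85793827-85803113, minus strand) had 5.20, and Adamts5 (chr16:85856173-85901828, minus strand), the main aggrecanase of mouse cartilage, had 4.35. Adamts4 had 1.73, Adamts9 had 1.33 and Adamts8 had -1.34. A gap of 2.62 on the per-length log2 scale thus separated the upper pair from the other 3.

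Adamts1 and Adamts5 are also neighbours on chromosome 16, on the same strand, with 53.1 kb between them. Both shared the junction after 10 bases of the motif with Adamts4 and Adamts8. Adamts8 has a neighbour of its own class, Adamts15, at 20.1 kb on chromosome 9, on the opposite strand, which had no row. Adjacent genes of the family within 100 kb of each other numbered 15 pairs, and Adamts1 and Adamts5 were the only pair with both rows present.

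The order of the members depended in part on transcript length. The longest transcript of Adamts5 had 10.791 kb, the longest of the 25, and its mean log2 expression of 7.78 ranked 3 among members as deposited. Per length it ranked 6. Adamts2 and Adamtsl3 also fell by 3 places and Adam5 rose by 3, and the other members moved by fewer. The plot of deposited level against transcript length shows this gene apart from the other members.

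**Figure D3:**
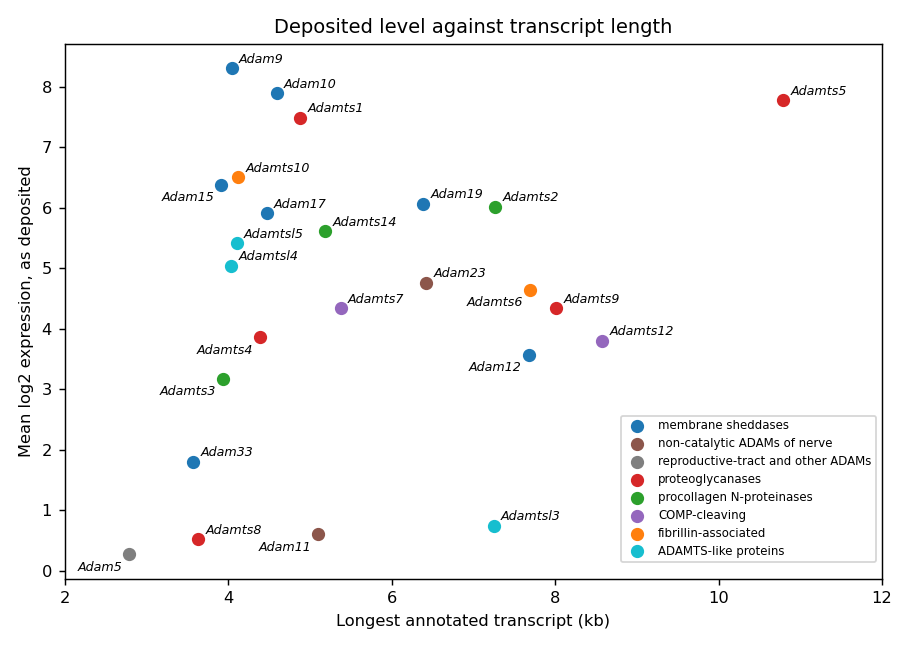
Mean log2 expression as deposited (y axis) against the length of the longest annotated transcript in kb (x axis) for the 25 members, coloured by class. Adamts5 stands at 10.791 kb and a level of 7.78, whereas Adam9, Adam10 and Adamts1 reach 8.31, 7.89 and 7.49 with transcripts of 4.044 to 4.884 kb.

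The 3 procollagen N-proteinases remove the amino-terminal propeptide of fibrillar collagens. Adamts14 had a per-length level of 3.24 and Adamts2, the main enzyme of skin, 3.15, a difference of 0.09 that turned to -0.40 without length scaling. Adamts3 had 1.20. All 3 lay below the median of all genes on this scale, whereas without length scaling Adamts14 and Adamts2 lay 0.59 and 0.98 above it. Their protease motifs coded for the same residues. The motif of Adamts2 spanned chr11:50775403-50776137, plus strand, that of Adamts14 chr10:61225462-61227123, minus strand, and that of Adamts3 chr5:89707430-89707818, minus strand, in each case with 1 intron.

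The fibrillin-associated enzymes were unequal. Adamts10, mutated in a form of Weill-Marchesani syndrome, had a per-length level of 4.47, above 73.0% of genes, and took place 4 in the family. With the union of exons Adamts10 had 3.46, below Adamts5 and Adam15. Adamts6, a close relative of Adamts10, had 1.70, lower by 2.77 on the per-length log2 scale with the longest transcript. The difference was 1.79 with the union of exons and 1.87 without length scaling. The median of the pair lay -0.22 from that of all genes per length and 0.54 above it without length scaling. Of the COMP-cleaving enzymes Adamts7 had a per-length level of 1.91 and Adamts12 of 0.70.

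Of the ADAMTS-like proteins, Adamtsl5 had a per-length level of 3.38 and Adamtsl4, a fibrillin-binding protein needed for the suspension of the lens, 3.03. With the median length of coding transcripts Adamtsl5 had 4.86, on a scale whose median over all genes was 3.93. Adamtsl3 had -2.12, lower than all but 0.624% of genes. Without length scaling it had a mean log2 expression of 0.74, above 5.11% of the whole table. Adamtsl3 was the lowest member with the longest transcript and with the union of exons. However, Adam11 was lowest with the median length of coding transcripts and Adam5 without length scaling. Relative to the median of all genes Adamtsl3 lay at -5.42 with the longest transcript, -4.39 with the median coding length and -4.29 unscaled. The 3 held 5.95% of the members' summed linear per-length level. By median, 3.03 for ADAMTS-like proteins and 1.82 for ADAMTS proteases, the proteins without a protease domain were not the lower set, but 3 genes give little weight to a median.

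The regulators of these enzymes were taken from lists of textbook partners. TIMP proteins inhibit metalloproteases, TIMP3 most broadly among ADAM and ADAMTS enzymes, and 4 of the 5 genes of the list of TIMPs and RECK had a row. Timp3 had a per-length level of 9.30, above 99.6% of genes. Timp2 had 8.88 and Timp1 had 7.51, so that on the per-length scale these 3 inhibitors each exceeded Adam9, the most abundant member. Without length scaling Timp1 had 7.33, below Adam9 at 8.31, while Timp3 at 11.5 and Timp2 at 10.8 stayed above it. Reck, a membrane-anchored inhibitor, had 1.74.

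Activators and carriers were nearer to the members. ADAM and ADAMTS precursors are cut by proprotein convertases, of which Furin had a per-length level of 4.21, Pcsk7 of 3.47 and Pcsk6 of 2.09. The 3 genes that carry ADAM17 to the cell surface had a median of 4.03, from Frmd8 at 4.28 to Rhbdf2 at 2.82. Tetraspanins of the TspanC8 group, which carry ADAM10, had 4 of 6 rows, from Tspan17 at 4.22 to Tspan15 at 1.75.

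Substrates spanned a wider range. The 10 of 11 shed growth factors and cytokines with a row had a median per-length level of 2.40. The highest was Csf1, the macrophage growth factor, at 7.35 and the lowest Cx3cl1, a membrane-bound chemokine, at -0.15. Among 13 of 16 shed receptors, adhesion proteins and Notch ligands the median was 5.74, and Cdh2 (N-cadherin, a substrate of ADAM10) was highest at 6.78. Il6ra, the receptor of interleukin-6, was lowest at -0.47.

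For the secreted enzymes, Vcan (versican) was the 1 of 4 large hyaluronan-binding proteoglycans with a row, at a per-length level of 4.30. All 5 procollagen substrates with a row exceeded all 3 procollagen N-proteinases, from Col1a1 at 10.7 to Col5a1 at 7.08. Of the fibrillin and COMP group Fn1 (fibronectin) had 10.0 and Fbn2 had 1.01. With the longest transcript Fbn1 (fibrillin-1) at 4.42 was close to Adamts10 at 4.47, but this closeness depended on length scaling. Without it Fbn1 was the higher, above 94.9% of the whole table against 79.4% for Adamts10. Comp and Vwf had no row. Lrp1, the receptor that takes up several ADAMTS proteases and TIMP3, had a per-length level of 7.31. Pofut2, which adds fucose to thrombospondin repeats, had 4.71.

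**Figure D4:**
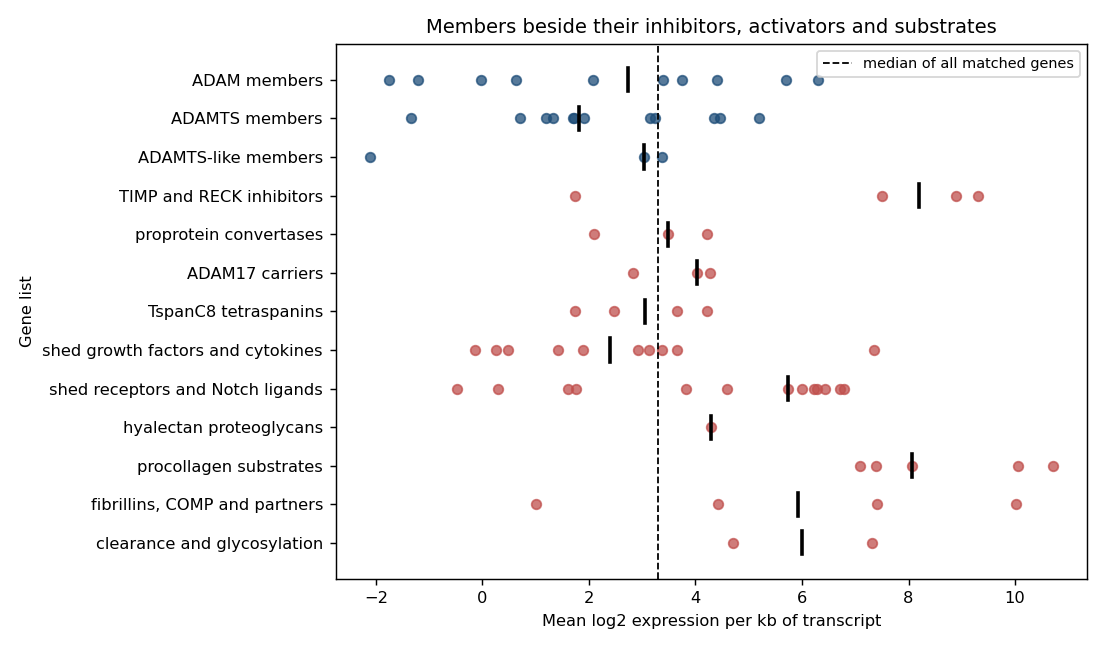
Mean log2 expression per kb of transcript (x axis) for the members (blue, 3 upper rows) and for 10 lists of inhibitors, activators, carriers and substrates (red). Each point is a gene, black bars are list medians and the dashed line is the median of all matched genes, 3.30. The lists of inhibitors and procollagens have medians of 8.19 and 8.07, above every member.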

How the data were processed

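RNA was taken from 8 cultures of the mSSC-YFP line, 4 with BMS493 and 4 with DMSO, for stranded mRNA libraries. According to the methods and the submitters' processing notes, the authors checked reads with FastQC, aligned them to mm10 (GRCm38) with STAR 2.3.0e, counted uniquely mapped reads on Ensembl 85 genes, normalized by the trimmed mean of M-values and used limma. The 1 deposited table gives, per gene symbol, the authors' mean log2 normalized expression over all samples, written with decimal commas, which were read as points. Its values, raised from log2, summed to 989369 over 12589 rows. The 4 other columns hold the authors' own comparison of BMS493 with DMSO (log2 fold change, t, p-value and adjusted p-value) and were not used, so no test was made and no planned limma fit was run. Columns of samples left out numbered 0.

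Symbols were matched to GENCODE M21 (GRCm38), where 11783 rows (93.6%) matched. A symbol shared by several gene models took the protein-coding one, then the longer one. The per-length level is the deposited value less log2 of the longest transcript in kb. Percentiles are shares of these 11783 genes. Coding sequences were cut from the transcript sequences at the annotated coding positions and translated to search the motif. The motif search was tested on simulated data, but the cutting and the placing of the motif on exons were not. Python 3.11.15, pandas 2.3.3 and numpy 2.4.6 were used. All members with a row are named, and of each partner list the highest and lowest gene at least. Other partners were picked for their role after their values were seen. Members, classes and lists were chosen with earlier results of these data known. Alternatives were other transcript lengths, no length scaling, a minimum level of 1 and older gene symbols. A cell type marker that was planned is not reported here.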

Additional observations from a re-analysis of the deposited data

How the results depend on the processing

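Class medians were recomputed relative to the median of all matched genes on the same scale. That of the sheddases, 0.45 with the longest transcript, was -0.17 with the median length of coding transcripts, which turned its direction, and 1.04 without length scaling. The procollagen N-proteinases, at -0.15, had -0.78 with the median coding length and 0.59, in the other direction, unscaled. The fibrillin-associated pair, at -0.22, had 0.54 unscaled, also in the other direction. The proteoglycanases, at -1.58, had -2.21 with the median coding length, -0.69 unscaled and -0.27 with members of level 1 or more. The COMP-cleaving pair, at -2.00, had -2.60 with the median coding length and -0.96 unscaled. The non-catalytic pair, at -3.14, had -2.35 unscaled and, with Adam23 alone left at a minimum level of 1, -1.23. The ADAMTS-like proteins, at -0.27, lay within 1.5-fold of that in each alternative but crossed 0 with the union of exons (0.11) and unscaled (0.01). Single members that crossed the median of all genes were Adam17 (-0.17) and Adam19 (-0.54) with the median coding length, Adamts14 (0.37) and Adamtsl4 (0.11) with the union of exons, and Adamts14 (0.59), Adamts2 (0.98) and Adamtsl4 (0.01) unscaled. Members below the lower quartile numbered 11 with the longest transcript and 12, 10 and 6 with the median coding length, the union of exons and no scaling. Members above the upper quartile numbered 3 with the longest transcript and 6 unscaled, the latter against the whole table. They were not counted with the other lengths. Older gene symbols left the count of members at 25.

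Members above the median of all genes numbered 9, and 7, 11 and 12 with the median coding length, the union of exons and no scaling. Adam9 and Adam10 held the first 2 places in each, with Adam10 first for the median coding length. Of the first 5 members 5, 4 and 4 were shared with the main order. No paired analysis was possible because each gene has only a mean over all cultures. Leaving out cultures in turn needs single values as well and was not run. Low levels were not placed against a detection limit, since only an average sequencing yield per sample is given and the depth of each library is unknown. The lowest mean log2 expression of the whole table was -0.579. A filter on low values before deposit is not given in the sources used here.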
